A study of Homo sapiens with 4 samples.

Results

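Of the 41313 autosomal CTCF peaks called in 1 asynchronous library, 5251 lay in gene deserts (12.7%, exact 95% binomial interval 12.4 to 13.0). A peak was placed in a desert when its centre was outside every protein-coding gene and over 100 kb from any annotated end of a protein-coding gene on hg38. The rule used position only, so the strength, spacing and sequence of these peaks played no part in the choice. The peaks came from asynchronous MDA-MB-435 cells, a human melanoma line in culture, and the chromatin was precipitated with a rabbit antibody against CTCF. The series held 4 samples in 2 groups of 2 replicates. The second asynchronous replicate and both mitotic samples, which were precipitated with an antibody to CTCF phosphorylated at T431, were not analysed here. No value below therefore has a replicate check, none was tested, and every interval covers counting error only. The library held 19210460 tags, and the whole list held 42462 peaks.

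CTCF is a zinc finger protein that binds a long DNA motif and, together with the cohesin ring, holds the anchors of chromatin loops and the borders of topological domains. Gene deserts are long stretches between protein-coding genes, and many flank genes of embryonic development or of neuronal adhesion. Some hold distant enhancers, and many hold genes for long noncoding RNAs (lncRNAs), which the rule did not count as genes.

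The CTCF motif could be read where a desert peak centre fell in the promoter window of a noncoding gene, since those windows are the sequence at hand. A window runs from 250 bases before to 50 bases after an annotated start (RefSeq, GRCh38.p14), and a gene can have more than 1 start. In all, 56 desert peaks were centred in the windows of 57 noncoding genes. The motif was searched on both strands as CCA, any 2 letters, AG, any 2 letters and GGC, which fixes 8 letters of 12. It was found for 11 of the 57 genes (19.3%, 10.1 to 31.9), against 26 of 2456 noncoding genes in deserts with no peak centre in their window (1.06%, 0.693 to 1.55). Among noncoding genes elsewhere with a peak centre in the window it was found for 75 of 451 (16.6%, 13.3 to 20.4), and among all windows outside chromosome 8 for 785 of 26246 (2.99%). The interval of the desert windows with a peak overlaps that of the other windows with a peak and lies wholly above that of the windows without a peak.

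**Figure D1:**
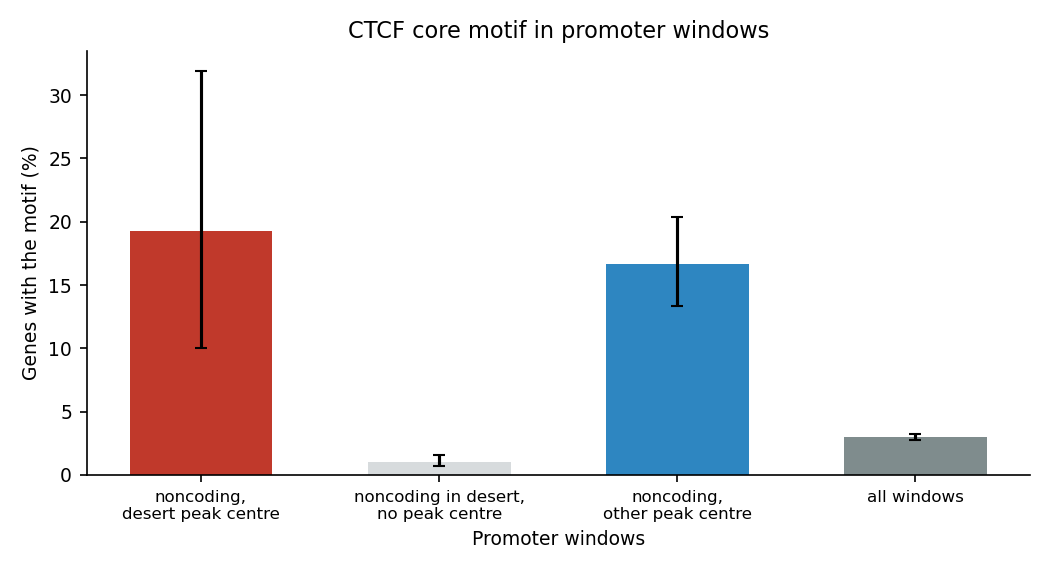
Share of genes whose promoter window holds the CTCF core motif, in percent, with exact 95% binomial intervals, for 4 sets of windows. The sets with a peak centre stand at 19.3% and 16.6%, and noncoding windows in deserts without one at 1.06%.

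Stretches around the motif are printed for 5 of the 11 windows that hold it, chosen to run from strong to weak peaks, since they show the letters under the peak itself. Each is 5′ to 3′ on the strand of the gene, and the capitals mark the motif, which may lie on the opposite strand. LOC105370061 (chr12:126874554-126874652, plus strand) lies under a peak of 75.5 normalised tags, 185.9 kb from the nearest protein-coding gene end. LINC02458 (chr12:89019705-89019804, minus strand) lies under a peak of 50.5 normalised tags. LINC02324 (chr14:65222484-65222583, minus strand) lies under one of 45.8 normalised tags. These are among the strongest peaks with the motif, whose median over 11 peaks was 32.5 normalised tags, against 21.3 for the peaks in windows without it. LOC107985848 (chr2:7672236-7672302, minus strand) lies under a peak of 24.5 normalised tags, 595.9 kb from a protein-coding gene. LINC02418 (chr12:130042368-130042467, minus strand) lies under a peak of 7.29 normalised tags, so the full motif was also found under a weak peak.
LOC105370061: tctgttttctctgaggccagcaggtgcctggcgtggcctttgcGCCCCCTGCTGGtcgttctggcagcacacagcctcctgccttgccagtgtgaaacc
LINC02458: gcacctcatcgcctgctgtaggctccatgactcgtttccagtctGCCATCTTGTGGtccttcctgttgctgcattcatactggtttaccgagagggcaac
LINC02324: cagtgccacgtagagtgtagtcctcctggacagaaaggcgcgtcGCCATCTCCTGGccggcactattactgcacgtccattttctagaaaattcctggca
LOC107985848: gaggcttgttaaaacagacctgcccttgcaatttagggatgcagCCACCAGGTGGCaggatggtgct
LINC02418: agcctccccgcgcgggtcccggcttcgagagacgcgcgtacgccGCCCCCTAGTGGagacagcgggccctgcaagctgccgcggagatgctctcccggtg

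The motif sat close to the summit: 10 of the 11 matches were centred within 50 bp of the peak centre, with a median offset of 8.5 bp. Allowing 1 mismatch among the 8 fixed letters raised the share to 80.7% (68.1 to 89.95) in desert windows with a peak centre. It was 18.8% in desert windows without one, 66.7% in other noncoding windows with one and 37.1% in all windows. The offset above covers exact matches only. A match with 1 mismatch could lie far from the peak centre, as at LOC124905093 (192.5 bp). The strongest desert peaks in promoter windows had a match with at most 1 mismatch. LOC124902439 (chr10:64041290-64041389, plus strand) is a lncRNA gene with a window under a peak of 136.1 normalised tags. This window lies inside the gene, away from its outer ends. LINC03051 (chr3:117997598-117997697, minus strand) lies under a peak of 75.5 normalised tags in the LSAMP to IGSF11 desert. Both are printed because they are strong peaks without an exact match, with the 1-mismatch match in capitals.
LOC124902439: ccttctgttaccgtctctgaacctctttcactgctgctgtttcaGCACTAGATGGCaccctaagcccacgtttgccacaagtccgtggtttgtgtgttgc
LINC03051: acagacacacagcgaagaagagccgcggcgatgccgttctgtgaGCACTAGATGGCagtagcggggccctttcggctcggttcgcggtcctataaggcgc

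Desert peaks were sparse. Deserts made up 29.5% of the autosomal sequence counted (821.8 of 2789.6 Mb, from the first to the last protein-coding gene of each chromosome) and held 6.27 peaks per Mb (6.10 to 6.44), against 18.3 per Mb in the rest. Each class near genes was denser than the deserts: 18.5 peaks per Mb lay outside genes 1 to 100 kb from an end, 16.5 inside genes 1 to 100 kb from an end, and 74.8 within 1 kb of an end. Over 100 kb from gene ends, taken as a whole, the density was not the same inside and outside genes. Sequence inside protein-coding genes but over 100 kb from their ends, called deep genic here, held 9.53 peaks per Mb (9.18 to 9.90), above the interval of the deserts. Deserts were below the rest of the chromosome on 22 of 22 autosomes, from 3.39 per Mb on chromosome 16 to 8.23 per Mb on chromosome 20. The share of a chromosome's peaks that lay in deserts ran from 1.83% on chromosome 19, the most gene-dense autosome, to 22.6% on chromosome 13.

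Part of the sparse sequence was blank. Of 24 autosomal stretches of at least 1 Mb with neither an annotated gene nor a peak, the desert share came to 91.3 Mb, and whether reads can be placed there was not tested. Without them the deserts held 7.05 peaks per Mb (6.86 to 7.25), still below the rest on 22 of 22 autosomes. The lowest density was then on chromosome 21 (4.92 per Mb), chromosome 16 stood at 5.22 and chromosome 20 was again the highest at 9.54. On chromosome 1 the density rose from 4.87 to 7.37 per Mb when they were left out, and on chromosome 19 from 4.27 to 8.50.

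**Figure D2:**
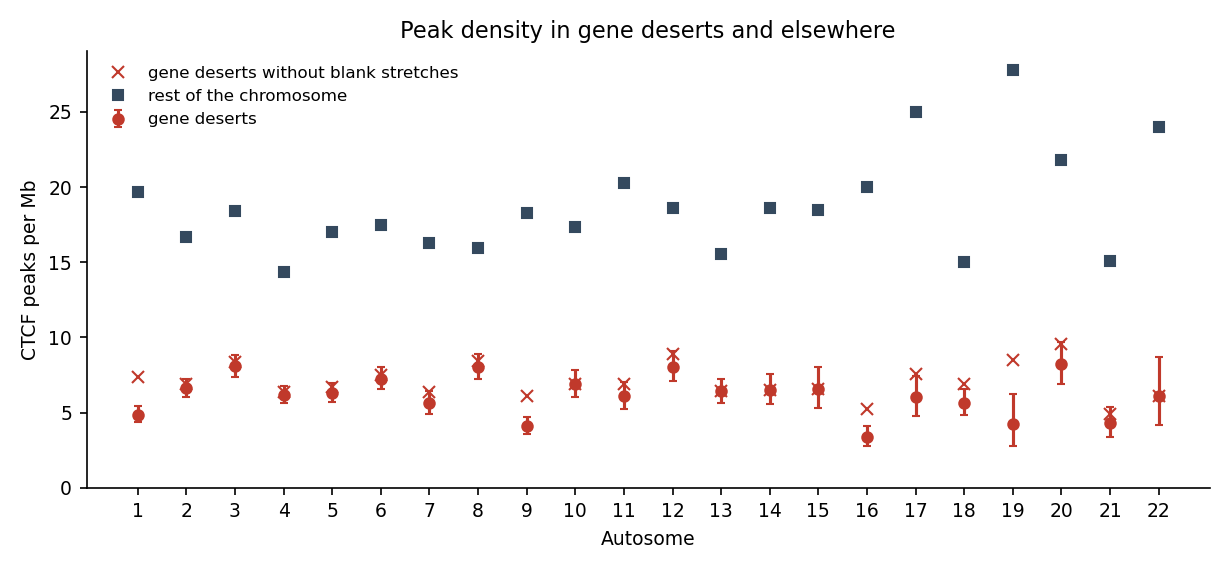
Peaks per Mb on each autosome, in gene deserts (circles, with exact 95% Poisson intervals), in deserts without blank stretches (crosses) and in the rest of the chromosome (squares). The squares lie above the circles and the crosses on all 22 autosomes.

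Density fell further with distance from genes. It was 9.80 peaks per Mb (9.39 to 10.2) at 100 to 200 kb outside genes without blank stretches, 6.84 (6.54 to 7.15) at 200 to 500 kb and 4.81 (4.48 to 5.16) at 500 to 1000 kb. Beyond 1000 kb it was 4.49 (3.99 to 5.04), whose interval overlaps the one before. A blank stretch is in part defined by having no peak, so leaving it out raises the density by construction. With blank stretches counted, the values at 500 to 1000 kb and beyond 1000 kb were 4.51 (4.20 to 4.83) and 2.07 (1.84 to 2.33), whose intervals do not overlap. Inside genes the density at 100 to 200 kb was 10.7 per Mb (10.15 to 11.19), whose interval overlaps the one outside genes. It was 8.51 (7.96 to 9.08) at 200 to 500 kb and 6.45 (5.38 to 7.67) at 500 to 1000 kb. These intervals lie above those outside genes. The fall also held within the same set of long deserts: in 223 deserts of at least 1 Mb, with no blank stretch or antigen receptor locus, it was 8.16 per Mb at 100 to 200 kb, 6.30 at 200 to 500 kb and 4.61 beyond 500 kb.

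**Figure D3:**
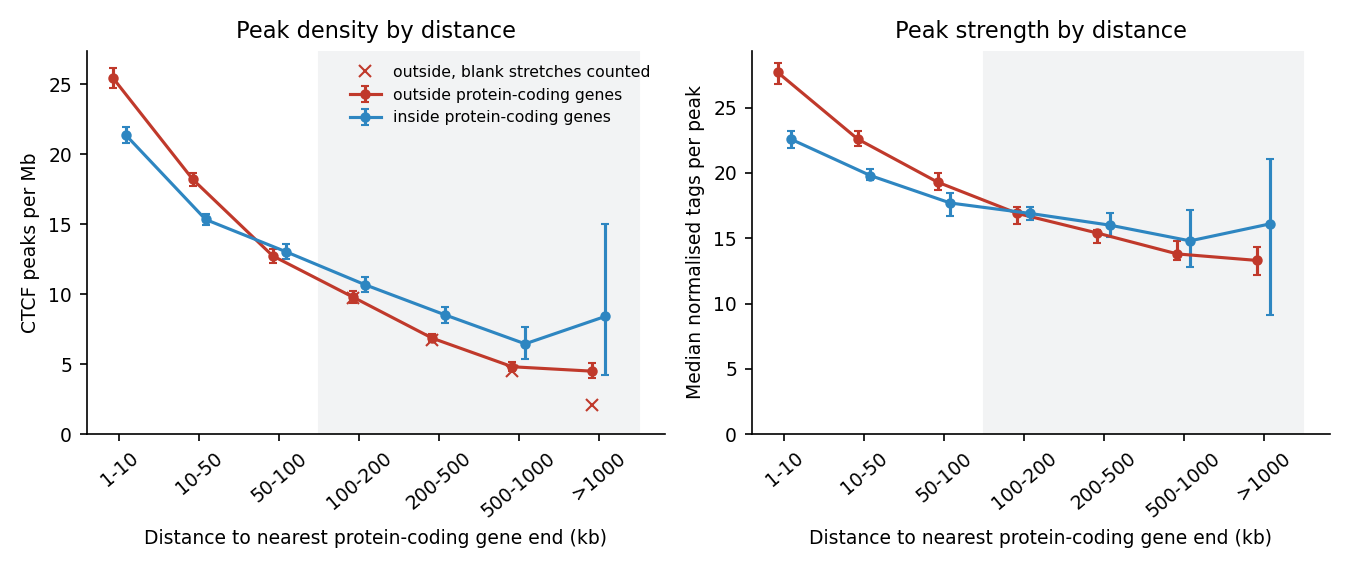
Peaks per Mb (left) and median normalised tags per peak (right) by distance to the nearest protein-coding gene end in kb, outside genes (red) and inside genes (blue), with 95% intervals. Gray marks distances over 100 kb, red circles leave out blank stretches and crosses count them. Outside genes the density falls from 25.4 per Mb at 1 to 10 kb to 4.49 beyond 1000 kb, and the median tags from 27.7 to 13.3.

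The peaks that were there were weak. Normalised tags are tags per peak scaled to a library of 10000000 tags, and the median desert peak had 15.4 (quartiles 10.4 and 24.5), against 23.4 for peaks outside genes at 1 to 100 kb and 22.6 for peaks within 1 kb of a gene end. Deep genic peaks were closest, at 16.7. Desert medians were below those of intergenic peaks near genes on 22 of 22 autosomes, but below those of deep genic peaks on 13 of 22, so the second difference did not hold throughout. The caller score, which counts at most 1 tag per position, gave the same order for these classes, with medians of 30.5 in deserts, 32.5 deep in genes, 45.5 near genes and 44 at gene ends. A score under 20, close to the limit of 15 tags, was found for 1172 desert peaks (22.3%), against 15.95% of all autosomal peaks. The share was 12.7% of intergenic peaks near genes and 15.2% of peaks inside genes at 1 to 100 kb. It was 18.1% of peaks within 1 kb of a gene end and 20.01% of deep genic peaks. Peaks that fell just short of the limit cannot be seen in a list of called peaks, so the density and the strength share that limit.

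Few desert peaks were among the strongest of the list. The top decile by score, at 104 or more, held 112 desert peaks (2.13%, 1.76 to 2.56), where 10.1% of all autosomal peaks were called by this rule. It held 2.03% of deep genic peaks, 11.5% of intergenic peaks near genes and 21.5% of peaks at gene ends. Among desert peaks the share fell from 2.89% at 100 to 200 kb to 1.84% at 200 to 500 kb and 1.01% at 500 to 1000 kb. Beyond 1000 kb it was 0.346% of 289 peaks, with an interval up to 1.91%.

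**Figure D4:**
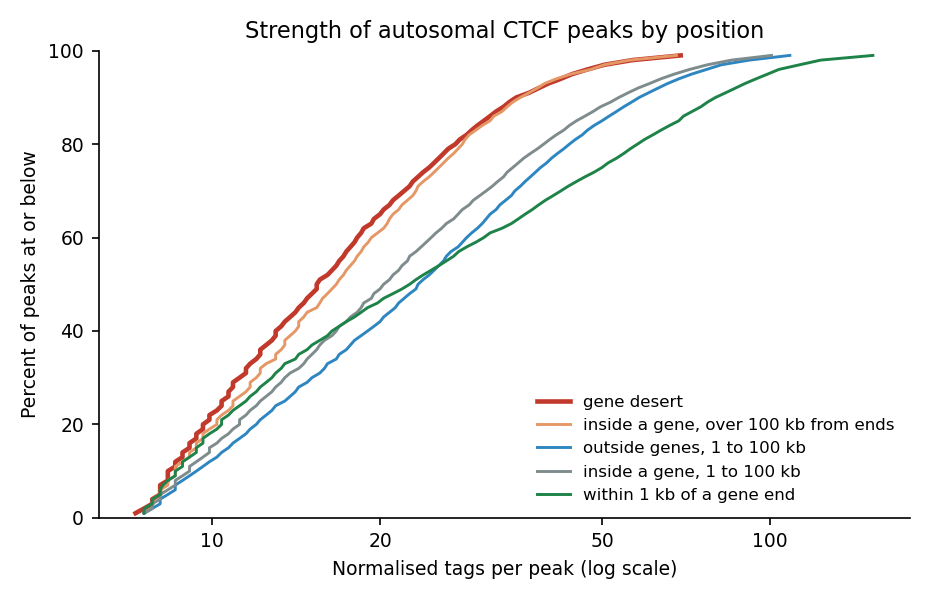
Percent of autosomal CTCF peaks at or below each number of normalised tags (log scale) in 5 position classes, drawn from percentile 1 to 99. The curve of the gene deserts, with a median of 15.4, runs beside that of deep genic peaks, at 16.7, and left of the curves of peaks near genes, at 20.3 to 23.4.

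Against their surroundings the desert peaks stood out less than intergenic peaks near genes and about as much as the rest of the list. The fold over the surrounding 10 kb, as the caller gave it, had a median of 13.2 in deserts, 12.8 deep in genes, 14.9 near genes and 11.5 at gene ends. The local background, computed as normalised tags divided by that fold, was low: 1.20 tags per peak width in deserts, 1.29 deep in genes, 1.49 near genes and 1.87 at gene ends. It was below the rest of the chromosome on 22 of 22 autosomes, while the fold was below the rest on 13 of 22 and below intergenic peaks near genes on 18 of 22. Local background and median tags were both lower in deserts and deep in genes than near genes and at gene ends. Gene ends, however, had more background but fewer tags than intergenic peaks near genes. Outside genes the local background fell with distance, from 1.25 at 100 to 200 kb to 1.09 beyond 1000 kb. The part of the local background in the result was not tested. The focus ratio, which is higher when the tags of both strands flank the centre as they should, was 0.844 in deserts and 0.842 deep in genes.

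Peaks on either side of the distance of 100 kb are given as values. The 5 desert peaks just beyond it had 23.7, 46.1, 11.2, 11.2 and 12.5 normalised tags, and the 5 intergenic peaks just short of it had 9.11, 31.0, 29.7, 20.3 and 15.9.

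Fewer desert peaks had a close neighbour. Another peak within 20 kb was found for 1737 of them (33.1%, 31.8 to 34.4), where 55.5% of all autosomal peaks had one. The share was 38.7% among deep genic peaks and 61.4% among intergenic peaks near genes. A lower density by itself lowers this share, and its part was not tested. Within deserts the median gap between neighbouring peaks was 66.0 kb. When desert peaks were joined by steps under 20 kb, 3576 stood alone (68.1%) and 551 lay in 157 runs of at least 3.

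There were 1516 deserts between neighbouring protein-coding genes, with a median length of 0.222 Mb after 100 kb was taken from each side, and they held 5150 of the peaks. The other 101 lay beyond the outermost genes of a chromosome. No peak was found in 410 deserts (27.0%), whose median length was 0.0530 Mb, and 1 peak in 270. At the other end, 138 deserts with 10 or more peaks held 1927 of them (37.4%). In the 223 long deserts named above the density ran from 0 to 18.2 peaks per Mb, with a median of 5.57 and a 10th to 90th percentile range of 2.52 to 9.73. The variance of the counts around the common density was 2.28 times what counting error alone gives.

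**Figure D5:**
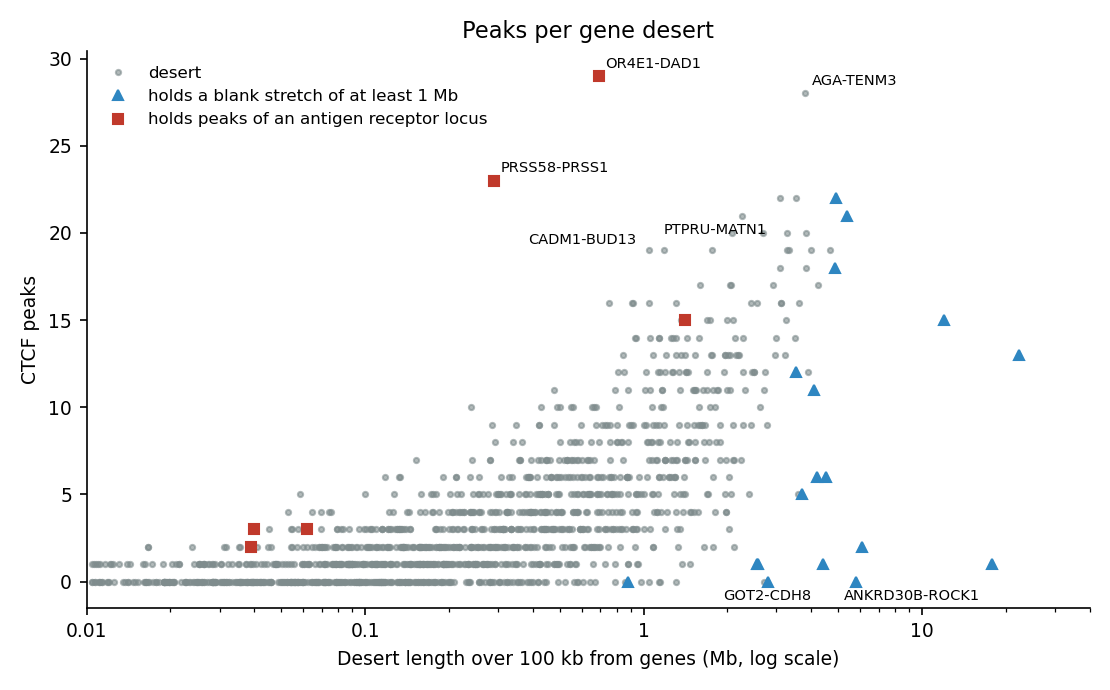
CTCF peaks in each desert against its length in Mb (log scale), with deserts that hold a blank stretch as triangles and those with peaks of an antigen receptor locus as squares. The 62 deserts shorter than 0.01 Mb, with 5 peaks in all, are not drawn. The receptor deserts OR4E1 to DAD1 (29 peaks) and PRSS58 to PRSS1 (23 peaks) stand above deserts of their length, and GOT2 to CDH8 lies at 0.

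The label of a desert did not hold everywhere. The antigen receptor loci, where V, D and J segments are joined in lymphocytes to make antibodies and T cell receptors, are not annotated as protein-coding genes, so the rule counted 139 of their peaks. The immunoglobulin heavy chain locus IGH held 66 peaks, all in deserts, at 5.11 per 100 kb and a median of 21.7 normalised tags, with its strongest at 73.9 beside the segment IGHV4-30-2. The T cell receptor locus TRB held 23 desert peaks at a median of 35.1 normalised tags, well above the median of all desert peaks. TRA held 29 at a median of 13.0, IGK 10 and 3 in its 2 clusters, IGL 8 and TRG 0. The longest run of desert peaks lay in TRB, with 12 peaks over 122.8 kb and 10.4 to 67.9 normalised tags. Leaving out these loci moved the share with a neighbour within 20 kb to 31.6%.

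Outside the receptor loci and blank stretches, the desert with the most peaks lay between AGA, which encodes a lysosomal enzyme, and TENM3, a teneurin of neuronal adhesion. It held 28 peaks over 3.81 Mb, 7.36 per Mb (4.89 to 10.6), with 7.81 to 42.2 normalised tags and a median of 15.8. TENM4 to FAM181B and SLITRK5 to GPC5 followed with 22 peaks each, over 3.09 and 3.52 Mb. The LSAMP to IGSF11 desert held 21 peaks over 2.26 Mb, including one of 102.3 normalised tags. LSAMP and IGSF11 are cell adhesion proteins of the immunoglobulin superfamily.

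The densest long desert lay between CADM1, a synaptic adhesion molecule, and BUD13, a splicing factor, with 19 peaks at 18.2 per Mb (10.96 to 28.4). In order along chromosome 11 its peaks had 10.7, 10.7, 36.4, 11.2, 8.59, 21.1, 9.11, 20.6, 16.4, 18.0, 18.2, 69.2, 23.4, 17.7, 24.2, 23.9, 10.4, 20.3 and 44 normalised tags. The strongest, chr11:116276568-116276916, lay 471.4 kb from the nearest protein-coding gene and 42.3-fold over its surroundings, so strong peaks were not limited to the edges of this desert.

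PTPRU to MATN1 followed with 19 peaks at 16.0 per Mb (9.66 to 25.1). PTPRU is a receptor tyrosine phosphatase and MATN1 a cartilage matrix protein. A run of 5 of its peaks lay within 24.9 kb, at 21.6, 29.2, 40.9, 34.6 and 13.5 normalised tags, and began 362.7 kb from PTPRU. PSAT1 to TLE4 (15.4 per Mb), DAB2 to PTGER4 (13.3) and TBL1XR1 to KCNMB2 (12.3) were next, with intervals that overlap those of the first 2.

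Long deserts without a peak were few. Of 7 deserts of at least 1 Mb with 0 peaks, 5 had no blank stretch. The longest was GOT2 to CDH8, 2.71 Mb on chromosome 16 between a mitochondrial aminotransferase and a neuronal cadherin. A count of 0 there allows up to 1.11 peaks per Mb by a limit of 3 counts. By the exact Poisson interval used for the other densities it allows up to 1.36. Both are below the median of long deserts. The 10 peaks flanking it had a median local background of 1.07, within the range of deserts. These are called peaks outside the desert, and whether reads can be placed inside it was not tested. CDH11 to CDH5, also on chromosome 16, had 0 peaks over 1.04 Mb, and DOK5 to CBLN4 had 0 over 1.15 Mb. Their upper limits were 2.88 and 2.62 per Mb by 3 counts, and 3.54 and 3.22 by the exact interval. The sparsest with a peak were CA10 to KIF2B, with 1 peak over 1.46 Mb, and LOC105373397 to SOX11, with 1 over 1.38 Mb.

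The density of deserts beside developmental transcription factors had an interval that overlapped that of all deserts. Deserts beside neuronal adhesion genes, taken at all lengths, had about the density of long deserts. Of 107 developmental transcription factor genes found in the annotation, 84 lay beside a desert (78.5%), against 13.7% of all 18973 autosomal protein-coding genes. The gene lists were chosen because genes beside deserts are often of these kinds, with earlier results of these data known. This share therefore in part restates the choice. The 105 deserts beside the developmental transcription factors held 484 peaks at 7.502 per Mb (6.85 to 8.201). Over all 1492 deserts without a blank stretch or receptor locus the density was 6.99 (6.79 to 7.19), and the intervals overlap. The 105 deserts were longer, with a median of 0.464 Mb against 0.216 Mb, so the 2 densities are not matched on length. The deserts beside 37 of 55 signalling ligands and antagonists held 6.60 per Mb (5.68 to 7.62). Those beside 63 of 70 neuronal adhesion and guidance genes were longer, with a median of 1.04 Mb. They held 755 peaks at 5.77 per Mb (5.36 to 6.19), below the interval of all deserts and beside 5.59 over the 223 long deserts. The 223 include some of these deserts, and no density was computed for the long ones among them alone. Median tags followed the same order, 16.4, 15.6 and 14.3. Deserts beside neuronal adhesion genes had the greatest median length and the lowest of these densities. Length and density did not move together throughout: deserts beside developmental transcription factors were longer than all deserts but not sparser. The part of desert length was not tested.

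Among the deserts beside developmental transcription factors, ZEB2 to ACVR2A, beside a transcription factor of epithelial-mesenchymal transition, held 16 peaks over 3.12 Mb (5.12 per Mb). ZIC1 to AGTR1 held 13 at 12.02 per Mb, and ARRDC3 to NR2F1 held 15 at 7.5 per Mb.

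Beside the morphogen gene BMP4, the desert towards DDHD1 held 9 peaks at 15.1 per Mb (6.90 to 28.7). In order along chromosome 14 they had 8.33, 12.2, 34.1, 27.6, 7.81, 10.9, 18.7, 23.9 and 25 normalised tags. The lncRNA gene LOC105370504 covers 6 of them. The desert between SPRY2, an inhibitor of growth factor signalling, and SLITRK1 held 19 peaks over 3.34 Mb, and NUDT12 to EFNA5, beside an ephrin ligand, held 16 over 3.61 Mb with 1 of 69.2 normalised tags.

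Part of the highest scores lay beside blank stretches or on high local backgrounds. The first, chr3:93470428-93470776, had 3062.7 normalised tags and raw tags at 7.47 times its score, beside a blank stretch between EPHA3 and PROS1. This ratio was above 1.5 for 3 desert peaks in all. Of the 10 highest, 5 lay in the desert between LOC124903767 and SHCBP1 on chromosome 16, where the local background was 17.3 to 50.8 against a median of 1.20 over desert peaks. Those 5 had 416.2, 230.6, 183.2, 135.3 and 129.9 normalised tags but only 4.18 to 10.6 fold over their surroundings.

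The other 4 of the 10 had local backgrounds of 1.97 to 3.13, above the 90th percentile of desert peaks (1.84) but far below those 5. The peak chr9:40992003-40992351 had 190.0 normalised tags at 88.8-fold, 84 bp from an end of FRG1HP, a transcribed pseudogene, with FOXD4L6 134.3 kb away. Reads of such gene copies can be split between copies, so its level is uncertain. The peak between PRR20G and TPRA1, chr3:127455562-127455910, had 161.1 normalised tags at 51.6-fold. The peak inside LOC124902439, chr10:64041208-64041556, whose motif is printed above, had 136.1 at 69.2-fold, 416.3 kb from REEP3. The peak between PFN2, an actin-binding profilin, and TSC22D2 had 106.2 at 42.4-fold.

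Of the 12 highest scores away from blank stretches and receptor loci, a list added after the values were seen, the last 6 had 93.7 to 102.3 normalised tags and lay 111.3 to 325.5 kb from the nearest protein-coding gene. The peak of 102.3 lay 325.5 kb from LSAMP. The peak of 99.4 lay 111.3 kb from MCTP2, on the side of RGMA, a guidance molecule. The peak of 97.9 lay inside LINC02751, 316.3 kb from SOX6, a transcription factor of cartilage and red cell development, and 380.5 kb from INSC. The peak of 97.6 lay 121 kb from SMAD6, an inhibitor of TGF-beta family signalling, and 161.7 kb from SMAD3, a mediator of it. The peak of 95.5 lay inside LOC105374593, about midway between FBXO11 and FOXN2, and the peak of 93.7 lay 116.6 kb from PARP8 and 420.3 kb from ISL1. Their fold over the surroundings ran from 19.2 to 71.9, the lowest being the peak between FBXO11 and FOXN2.

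The desert peaks farthest from any protein-coding gene were 5 on chromosome 22, from 3930 to 4593 kb before OR11H1, an olfactory receptor gene. They had 7.81, 32.0, 20.8, 45.0 and 12.5 normalised tags in order along the chromosome. The second lay 104 bp from an end of the transcribed pseudogene FRG1FP.

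Noncoding genes covered part of the deserts and held a little more than their share of the peaks. They are taken here as all genes not annotated as protein-coding, so the antigen receptor loci and their segments are included. Without the receptor loci, 28.8% of desert peaks lay inside such a gene (27.6 to 30.1). Inside a gene that is not protein-coding lay 1612 desert peaks (30.7%, 29.5 to 32.0), where 17.3% of all autosomal peaks did and 24.7% of intergenic peaks near genes. Those genes cover 24.9% of the desert sequence counted and held 1538 of the 5150 peaks in it (29.9%), 1.20 times as many as by length. For lncRNA genes alone the ratio was 1.16, with 1398 peaks. Peaks inside and outside lncRNA genes had medians of 15.4 and 15.6 normalised tags.

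The ends of noncoding genes, with those of antigen receptor segments again included, stood out more. No ratio at ends was computed without the receptor loci, but lncRNA and pseudogene ends are given apart below. Within 1 kb of such an end lay 401 desert peaks (7.64%, 6.93 to 8.39), below the 8.68% of all autosomal peaks and the 10.5% of intergenic peaks near genes. These ends make up 2.93% of the desert sequence counted and held 344 of the 5150 peaks in it (6.68%), 2.28 times as many as by length. At lncRNA ends the density was 15.01 per Mb, against 6.10 in the rest of the deserts, with a median of 18.5 normalised tags against 15.4. The top score decile held 3.38% of the 237 peaks at lncRNA ends (1.47 to 6.54) and 2.07% of the others (1.70 to 2.51), and these intervals overlap. Pseudogene ends gave a ratio of 1.67 with 79 peaks, and their 85 desert peaks in all had a median of 14.8 normalised tags.

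Outside the receptor loci, LOC124902439 between REEP3 and CTNNA3 held the most desert peaks of any noncoding gene, 9 over 820.4 kb with 8.85 to 136.1 normalised tags. MIR3681HG between LPIN1 and TRIB2 and LINC03000 between MAT2B and TENM2 held 7 each, with medians of 10.7 and 13.8. SOX2-OT, which overlaps the stem cell factor gene SOX2, held 6 desert peaks of 9 in all, and these 6 had 17.4 to 34.4 normalised tags with a median of 23.9. At noncoding ends, the strong peak chr15:98421587-98421935 had 90.6 normalised tags, 763 bp from an end of LINC02351 between ARRDC4 and IGF1R, the receptor of insulin-like growth factor.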

How the data were processed

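The deposited file holds the peaks of 1 library, called by the authors with HOMER findPeaks in factor style, with no control library in the command, per the file headers. The submitters' processing notes name Bowtie2, HOMER and hg38, with versions not given in the sources used here. The settings, per the file headers, were at most 1 tag per position, 15 tags or more (false discovery rate 0.001), a local fold of 4 over 10 kb and a local p-value of 1e-04. The deposited signal is the tag count of a 349 bp peak scaled to 10000000 tags. The deposited focus ratio is a fraction, the deposited score counts tags per position, the deposited fold is a ratio to the surrounding 10 kb, and the p-value column of the authors was not used. Without a control, extra DNA copies or repeats can pass as peaks.

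Peaks were placed against 18973 autosomal protein-coding genes of RefSeq (GRCh38.p14). The table also lists genes of unplaced and alternate sequences under chromosome names with their own coordinates, and 153 such protein-coding rows were left out. Class assignment was checked against a brute-force search on simulated positions. Intervals are exact binomial (Clopper-Pearson), exact Poisson or order-statistic, at 95%. Promoter windows came from RefSeq, and all 33725 rows matched the gene table. No genome was given, so the planned motif share over all peaks was replaced by shares over promoter windows. Genes were named by a rule on scores, counts, densities and distances, with additions away from blank stretches and receptor loci made after the values were seen, and 1 desert that the rule selects is not reported here. The members and gene lists were chosen with earlier results of these data known. Alternatives varied the distance, the score threshold, the gene rows, the receptor loci, the blank stretches, the neighbour distance and the motif. Scripts ran in Python 3.11.15 with scipy 1.17.1, pandas 2.3.3, numpy 2.4.6 and matplotlib 3.10.9.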

Additional observations from a re-analysis of the deposited data

Results flagged for a closer look

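The X chromosome lies outside the autosomal rule, yet the same distance rule placed 147 of its 1075 peaks in gene deserts (13.7%), in data the report did not use. Over 53.3 Mb of X deserts this is 2.76 peaks per Mb (2.33 to 3.24), beside 6.27 in the autosomal deserts. The X desert peaks had a median of 11.7 normalised tags and a local background of 0.641, against 15.4 and 1.20 in autosomal deserts. Their fold over the surrounding 10 kb was 18.6 against 13.2. The share of peaks in deserts was near that of the autosomes (12.7%). No density, tags or background were computed for the rest of X, so whether these values are particular to its deserts was not tested.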

How the results depend on the processing

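No paired analysis was possible because 1 library was used and no result comes from a test. Of 77 alternative values, 48 stayed within the interval of the value reported (for the number of peaks, within 1.5 times of it) and 29 did not. At a distance of 50 kb there were 7761 peaks, the density was 7.52 per Mb, the median tags 16.4, the local background 1.24, the focus ratio 0.847, the top decile share 3.48% and the share with a neighbour 37.9%. At 200 kb there were 3126 peaks at 5.02 per Mb, with 14.6 tags, 1.16, 0.841, 1.57% and 28.3%. With peaks at or above the median score there were 1815 at 2.15 per Mb, with 29.2 tags, a fold of 22.2, 1.33, 0.879, 2.59% and 20.9%, and here deep genic peaks had fewer tags, 28.6. With gene rows of other sequences at face value the density was 5.76 per Mb, and without blank stretches 7.05. Without receptor loci, 31.6% had a neighbour and 28.8% lay in noncoding genes. The share with a neighbour was 18.4% at 10 kb and 58.5% at 50 kb. The motif share was 77.2% (64.2 to 87.3) with the shorter motif AGNNGGC, a part of the full one, and 80.7% with at most 1 mismatch. The shorter motif was found in 67.5% of all windows, which lies inside that interval. It was found in 42.35% of desert windows without a peak centre and 84.7% of other noncoding windows with one. With at most 1 mismatch the share of all windows was 37.1%. The face value rows, the receptor loci and the mismatch were chosen after seeing the data. With 1 library there is no replicate spread, and peaks under 15 tags cannot be seen.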

Other observations

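Across the 223 long deserts without a blank stretch or a receptor locus, peaks per Mb had a Spearman correlation of -0.27 with desert length and of 0.20 with annotated noncoding genes per Mb. The correlation with the median local background of the 10 flanking peaks was 0.31, and with that of the desert's own peaks it was 0.36 over 210 deserts with at least 3 peaks. These are descriptions across deserts that share 1 library, its depth and the DNA copy number of the cell line, and they were not tested. Peaks called in a desert also add tags to the local background of their neighbours.

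Outside the receptor loci and away from blank stretches, the largest run of desert peaks lay between LOC124903767 and SHCBP1. It held 7 peaks over 22.5 kb at 16.1 to 183.2 normalised tags, with a median local background of 8.26. A run of 6 peaks over 42.1 kb, at 8.07 to 21.9 normalised tags, lay between GATA3 and CELF2. GATA3 is a transcription factor of T cells and of breast epithelium. Another 6 lay over 54.3 kb between SEMA3C, a guidance ligand, and HGF, hepatocyte growth factor, at 9.37 to 33.6. Between DACT1 and DAAM1, both of which act in Wnt signalling, 5 peaks lay over 24.9 kb at 10.7 to 45.0.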
